A study of Mus musculus with 24 samples.

Results

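The relation between newly made and total mRNA was examined gene by gene in adipocytes on day 7 of 3T3-L1 differentiation. 3T3-L1 is a mouse embryonic fibroblast line that a hormone cocktail turns into adipocytes. In SLAMseq, cells are given 4-thiouridine, which RNA polymerases build into new transcripts in place of uridine, and chemical conversion then makes each such position read as C instead of T. A read with at least 1 T-to-C change was counted as labeled, and the labeled share of a gene is its labeled reads as a percent of all its reads. The tables held 91830 3′ UTR intervals of 26995 gene symbols. For each symbol, the interval with the highest mean total reads over all 24 libraries was kept. The 6697 genes described here were selected on measured values, namely at least 200 total reads in each of the 3 DMSO day 7 libraries. By the same minimum, 6374 genes were found at DMSO day 3, 7460 at DMSO day -2 and 6204 at ML-792 day 7.

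DMSO day 7 cells had received the vehicle and were harvested 7 days after induction with dexamethasone, 3-isobutyl-1-methylxanthine and insulin, the cocktail being replaced on day 3 by insulin-containing maintenance medium. Day -2 cells were preadipocytes before induction, and day 1 cells were in the cocktail. Day 3 cells were harvested on the day of the medium change, and whether before or after it is not stated. ML-792 day 7 cells had the same course as DMSO day 7 cells, with 0.5 µM of ML-792, an inhibitor of the SUMO-activating enzyme. All cells, controls included, received 100 µM of 4-thiouridine for 45 min before lysis. Each group held 3 libraries named A, B and C, described as biological replicates of this 1 cell line.

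The amount of an mRNA is set by its synthesis and its decay, and at a steady level the fraction made in a short pulse is higher the faster the mRNA is degraded. Transcripts of immediate early genes and of inhibitors that limit signaling are known for rapid decay, often through AU-rich elements in the 3′ UTR that bind decay factors of the ZFP36 family, whereas transcripts of metabolic enzymes and of secreted adipocyte proteins are known to be stable. Where the level of an mRNA is still rising or falling, the labeled share also carries that change, so it stands for turnover only at steady state. Sequence-specific repressors of the Pumilio family shorten the life of transcripts that hold their motif, and microRNAs do so through seed matches.

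The 3 libraries carried the signature of adipocytes. The 8 adipocyte markers summed to between 29248 and 33653 CPM (counts scaled to the library's total) at DMSO day 7, against 119 to 204 at day -2, while 7 preadipocyte markers summed to between 332 and 387 at day 7 and 4152 to 6735 at day -2. The 8 macrophage markers summed to at most 5.32 CPM at day 7 with 5 of 8 at 0 in all 3 libraries, and the 6 endothelial markers to at most 1.26 with 3 of 6 at 0. Over all intervals, library A held 17322610 reads of which 186237 were labeled, library B 19437390 and 180072, and library C 17192037 and 185465. The pooled labeled share was 1.01% ± 0.0914 (SD, n = 3), against 3.19% ± 0.471 in day -2 preadipocytes. Days 1 and 3 had 1.28% ± 0.0744 and 1.02% ± 0.112, and ML-792 adipocytes had 0.822% ± 0.0317.

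Among the 6697 genes, the mean labeled share had a median of 0.838%, with 0.321% at the 10th and 2.26% at the 90th percentile, a range of 7.05-fold. The 1st percentile lay at 0.0843%, the 99th at 9.01% and the highest gene at 41.4%. A share of 5% or more was found in 158 genes, of 2% or more in 855 and of under 0.5% in 1559. The 670 genes of the highest decile, with shares of 2.27% or more, held 29.3% of the labeled reads of all 6697 genes but 5.52% of their total reads. No labeled read at all was seen in 35 genes, for which 3 reads over the summed totals allow shares of up to 0.108% to 0.343%.

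Depth set how well a single gene could be placed. The median gene had 7 labeled reads per library, and 4097 genes (61.2%) had a mean under 10. Spearman correlations of the shares between libraries of day 7, taken across genes, lay between 0.326 and 0.406 for 2706 genes with a lowest total of 200 to 500 reads and between 0.742 and 0.788 for 292 genes with at least 5000 reads in each library. The median coefficient of variation fell from 0.715 to 0.204 between these classes. In all classes the spread between libraries was larger than that of binomial sampling, with a median ratio of variances of 1.89 over all genes, so counting limits understate the error. At the lower edge, Zhx3 (200 reads in its shallowest library) had a share of 0% and Pam (200) one of 0.601% ± 0.658, and just outside it Pkp4 (199) had 1.79% ± 1.62 and Arl5a (199) 3.61% ± 1.27.

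**Figure D1:**
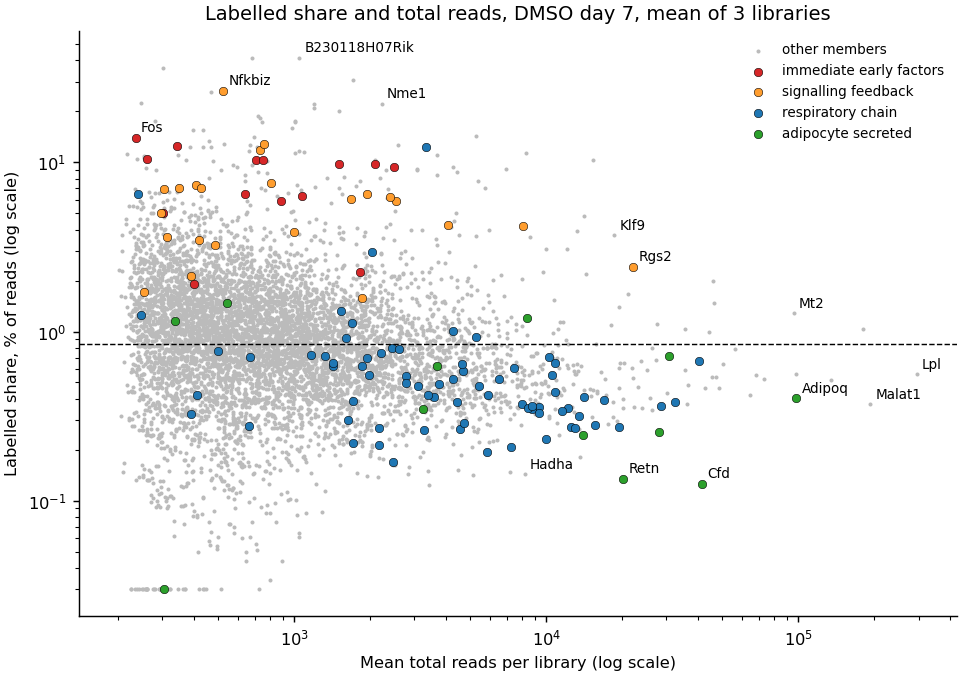
Mean labeled share (percent of reads, log scale) against mean total reads per library (log scale) for the 6697 genes in the 3 DMSO day 7 libraries, with 4 gene lists colored and the dashed line at the median of 0.838%. Genes with no labeled read are drawn at the bottom at 0.03%. Immediate early factors and signaling feedback genes lie above the median, and most respiratory chain and adipocyte-secreted genes lie below it.

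Immediate early transcription factors, which cells switch on within minutes of a stimulus, had the highest shares of all lists examined. Of 21 listed, 14 passed the read minimum, with a median share of 9.53% and 12 of the 14 in the highest decile. Fos, an AP-1 subunit, had shares of 17.4%, 12.2% and 12.4% in libraries A, B and C from 207 to 275 total reads, a mean of 13.97% ± 2.96 (SD, n = 3). Egr2, a zinc finger factor, had 12.6%, 12.5% and 12.4%. The orphan nuclear receptor Nr4a1 had 11.2%, 10.2% and 9.43%, and Egr1 had 9.23%, 7.98% and 10.8%. Junb, Ier2, Ier5 and Ier3 also averaged between 9.71% and 10.5%. The list was not uniform, since Jund had a mean of 2.24% ± 0.356 and Maff, the lowest, 1.91% ± 0.560, and neither overlapped with Fos in any library.

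Feedback inhibitors of kinase and cytokine signaling formed the next group, with 23 of 36 listed genes passing the minimum, a median share of 5.86% and 20 of 23 in the highest decile. Not all were such inhibitors, since the list also held the clock gene Per1 and the kinase Sgk1, both in the highest decile. Nfkbiz, a nuclear regulator of NF-kB, had shares of 27.0%, 22.1% and 30.3%. Socs3, which blocks JAK-STAT signaling, had 11.2%, 12.6% and 14.5%, and Dusp1, a MAP kinase phosphatase, had 12.1%, 10.3% and 13.2%. These 3 genes were high in every library. The ERK phosphatase Dusp6 averaged 7.00% ± 2.10, the receptor kinase antagonist Spry2 7.01% ± 1.35 and the kinase Sgk1 6.49% ± 0.297. Rgs2, an inhibitor of G protein signaling, was the most abundant of the list with 21496 to 23363 reads per library and had shares of 2.11%, 2.46% and 2.66%. The lowest was Socs2 with 1.57% ± 0.0997, above the median of all genes.

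Genes that themselves act in mRNA decay had high shares as well, with a median share of 3.57% for 9 of 11 listed genes and 7 of the 9 in the highest decile. Zfp36, which encodes the AU-rich element binding protein tristetraprolin, had shares of 10.8%, 13.4% and 10.7%. Its paralogs Zfp36l2 and Zfp36l1 averaged 11.1% ± 4.66 and 3.57% ± 0.282. Btg1 and Btg2, which recruit the deadenylase complex, averaged 10.5% ± 1.42 and 7.28% ± 0.610. Pum2, which encodes a Pumilio repressor, was the lowest of the list at 1.42% ± 0.108.

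Among the Krueppel-like factors, 11 of 13 passed the minimum, with a median of 3.70% and 8 in the highest decile. Klf10 had shares of 9.53%, 15.4% and 11.9%, and Klf6 8.93%, 8.15% and 9.02%. Klf9, a glucocorticoid-induced factor with 16782 to 19456 reads per library, had 3.46%, 4.07% and 3.57%, while Klf13 was lowest at 0.870% ± 0.367. Core clock and clock output genes had a median of 2.11% with 6 of 13 in the highest decile, and within them Per1 (3.85% ± 1.18) and the clock output gene Dbp (0.440% ± 0.762) lay at the ends. Numbered Zfp genes, mostly C2H2 zinc finger proteins, had a median of 1.72% over 60 genes with 20 in the highest decile and none in the lowest. Hes1, the Notch target, lay outside these lists and had shares of 10.1%, 11.6% and 12.6%, and it is named for its printed sequence after its value was seen.

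The core nonamer of AU-rich elements was found in some of these transcripts. In the last 500 bases of the interval it was held by 8 of 86 windows (9.30%) of the immediate early, feedback, decay, Krueppel-like, clock and adipogenic factors, against 2.65% of the windows of all genes. The 7 highest genes with this nonamer, by mean share and with at least 10 labeled reads in each library, are shown with the nonamer in capitals, as the site nearest the interval's end with 10 bases on each side, from the mm10 (GRCm38) sequence of RefSeq and written 5′ to 3′ on the gene's strand. Only genes with a day -2 to day 7 ratio of shares of 1.5 or more, a division described later, were considered. Genes of a chromosome not reported here, and sites without 10 bases on each side within the interval, were left out, so higher genes may hold the motif.
Fos (12.2% to 17.4%): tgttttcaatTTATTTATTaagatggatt
Dusp1 (10.3% to 13.2%): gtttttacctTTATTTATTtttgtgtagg
Zfp36 (10.7% to 13.4%): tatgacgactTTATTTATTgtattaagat
Zfp36l2 (7.52% to 16.4%): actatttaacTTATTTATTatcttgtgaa
Elmsan1 (4.84% to 9.21%): ttctgggttaTTATTTATTactagactgg
Fosl2 (5.53% to 7.70%): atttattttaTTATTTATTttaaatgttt
Cebpd (5.83% to 6.49%): ggttggacatTTATTTATTgtaacagaac
The site of Fos lies at chr12:85477103-85477131 on the plus strand, that of Dusp1 at chr17:26505870-26505898, that of Zfp36 at chr7:28376951-28376979 and that of Zfp36l2 at chr17:84184914-84184942, the latter 3 on the minus strand. Elmsan1 holds its site at chr12:84149717-84149745 on the minus strand, Fosl2 at chr5:32156871-32156899 and Cebpd at chr16:15889228-15889256, both on the plus strand. All of them fall within the 3′ UTR interval counted for the gene. Those of Zfp36l2, Elmsan1 and Fosl2 start 1009, 568 and 960 bases before its end, outside the last 500 bases in which windows were counted.

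The Pumilio-type octamer TGTANATA is shown in the same way for the 5 highest genes that hold it, because it was more frequent among high shares in each class of AT content, as given after the sites.
Nfkbiz (22.1% to 30.3%): tttaaaatgtTGTACATAtttgatttga
Egr2 (12.4% to 12.6%): tatgtatatgTGTATATAtacatattca
Dusp1 (10.3% to 13.2%): tgtactatctTGTAAATAgacccagagc
Hes1 (10.1% to 12.6%): gcactgcattTGTATATAttttatatgt
Btg1 (9.21% to 12.03%): gtaattttgcTGTAAATAttaacggggt
These sites lie at chr16:55812129-55812156 on the minus strand for Nfkbiz, chr10:67546536-67546563 on the plus strand for Egr2 and chr17:26505768-26505795 on the minus strand for Dusp1. For Hes1 the site is at chr16:30067603-30067630 and for Btg1 at chr10:96622022-96622049, both on the plus strand. Dusp1 thus holds both motifs within its counted interval. A match to these letters is a description and does not show that a factor binds there.

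Over all genes with an interval of at least 500 bases, the last 500 bases were searched on the transcript strand. Of these 4972 windows, 56.7% held the pentamer ATTTA, 2.65% the nonamer TTATTTATT, which contains the pentamer, and 13.7% the octamer TGTANATA, where N is any base. Between the lowest and the highest decile of share, windows with the octamer rose from 7.24% to 20.9%, with the nonamer from 1.95% to 4.26% and with the pentamer from 45.1% to 64.7%. The highest decile had 564 windows and the lowest 359, and median interval lengths were of 571 bases in the lowest and 1518 in the highest decile. Base content moved along, with a median T content of the interval of 26.0% against 30.3% and a median AT content of the window of 53.4% against 60.2%.

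The octamer differed also among windows of like AT content. In the AT-poorest of 3 equal classes, 8.51% of windows in the 2 highest deciles of share held it against 5.85% in the 2 lowest deciles, in the middle class 17.6% against 6.49%, and in the AT-richest 26.0% against 15.6%. The pentamer was found in 38.3% against 27.4%, 55.2% against 59.2% and 83.0% against 75.6% from the AT-poorest to the AT-richest class, so that its direction differed between classes. The nonamer was found in 2.48% against 1.60% in the first class and in 3.36% against 1.15% in the second, and in 5.4% against 5.19% in the AT-richest. These classes were chosen after seeing the data. For the 2211 genes with at least 1000 reads in each library, also chosen after seeing the data, the octamer rose from 5.32% in the lowest to 17.9% in the highest decile. T content acts on the labeled share directly, since a read with more T positions has more chances to be labeled, and the part of T content in these gradients was not tested.

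**Figure D2:**
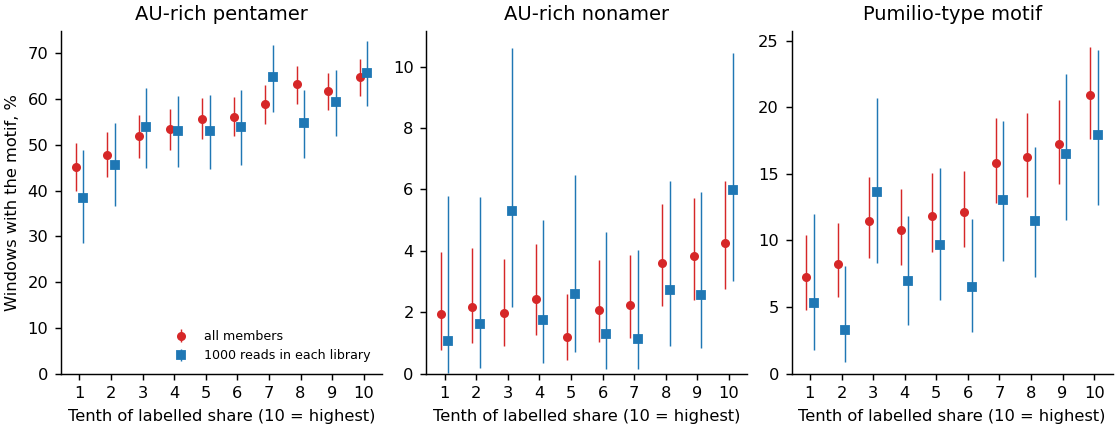
Percent of 500-base windows at the interval's end that hold the pentamer ATTTA (left), the nonamer TTATTTATT (middle) or the octamer TGTANATA (right), by decile of labeled share from lowest (1) to highest (10). Red circles are all members, blue squares those with at least 1000 reads in each library ranked anew, and bars are exact 95% binomial intervals. The octamer rises from 7.24% to 20.9% for all members.

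Transcription factors of adipogenesis spanned the whole range. Of 34 listed, 28 passed the minimum, with a median of 1.47% and 5 in the highest decile. The early factors Cebpd and Cebpb had shares of 6.01%, 6.49% and 5.83% and of 3.22%, 4.27% and 3.46%, each library of the former above each library of the latter. The late master regulators were lower, with 1.91%, 1.62% and 1.32% for Pparg and 0.938%, 1.34% and 1.17% for Cebpa. Nr1h3, the oxysterol receptor LXR alpha, was the lowest at 0.279% ± 0.216.

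The terminal products of adipocytes stood at the other end. Secreted adipocyte proteins had a median share of 0.376% over 12 of 18 listed genes, with 5 in the lowest decile. Cfd, the complement protease adipsin, had 0.0961%, 0.0981% and 0.183% from 32174 to 58078 reads, and Retn, the hormone resistin, had 0.124%, 0.159% and 0.121% from 19064 to 21962 reads. Both were low in every library. Adiponectin (Adipoq) followed with 0.377%, 0.408% and 0.425% from 91216 to 102464 reads. All 8 defining adipocyte markers lay below the median of all genes, from 0.126% for Cfd to 0.594% for the hormone-sensitive lipase Lipe.

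Genes of lipid storage and release had a median of 0.562% over 20 of 22 listed genes. Lpl, the lipoprotein lipase that takes up circulating fat, was the most abundant transcript of the list with 265736 to 325733 reads and had shares of 0.527%, 0.517% and 0.630%. The fatty acid carrier Fabp4 had 0.470%, 0.460% and 0.613%. Only 3 of the 20 exceeded the median of all genes, namely the ATGL inhibitor G0s2 with 5.24%, 5.34% and 4.40%, the lipase inhibitor Angptl4 with 1.97%, 1.04% and 1.81%, and Hilpda, another ATGL inhibitor, with 1.33%, 2.13% and 1.23%. Each of these 3 encodes an inhibitor of a lipase, and they are named as a count of 3 after their values were seen. Lipogenic genes had a median of 0.561% over 22 genes with none in the highest decile, Scd1 having 0.545%, 0.530% and 0.612% from 75280 to 125363 reads.

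Genes of energy metabolism had low medians with a few high members. Fatty acid oxidation genes had the lowest median of all lists, 0.368% over 17 genes, of which 1 exceeded the median of all genes. Hadha, a subunit of the mitochondrial trifunctional protein, had 0.208%, 0.122% and 0.101%. Subunits of the respiratory chain and ATP synthase had a median of 0.430% over 72 of 84 listed genes with 17 in the lowest decile, 9 above the median of all genes and 3 in the highest decile. Uqcrc1 of complex III had 0.214%, 0.171% and 0.200%. Glycolysis and the citric acid cycle had a median of 0.449% over 27 genes, of which 3 lay above the median of all genes. Among all genes with at least 5000 reads in each library, the lowest shares included those of Cfd, Retn, Rftn2, Hadha, Aldh2, S100a1, Uqcrc1, Plod1 and Gpi1, from 0.126% to 0.230%.

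Other abundant classes lay between. Cytosolic ribosomal proteins had a median of 0.497%, but 37 of 86 listed genes passed the minimum, and reads of this family can be shared with processed pseudogenes. Collagens and matrix proteins had a median of 0.523% over 24 genes, mitochondrial ribosomal proteins 0.602% over 66, proteasome subunits 0.615% over 34 and translation factors 0.689% over 47. Splicing factors lay above all genes with 1.16% over 71 genes. Among long noncoding RNAs the median was 2.87% over 11 genes, and the nuclear RNA Malat1 was the lowest with 0.347%, 0.302% and 0.464%. Neat1, the scaffold of paraspeckles, had 2.83%, 2.80% and 3.58%. The 2 metallothioneins Mt1 and Mt2, metal-binding proteins with 93264 to 219875 reads, had means of 1.04% ± 0.0927 and 1.28% ± 0.143, above the median of all genes.

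**Figure D3:**
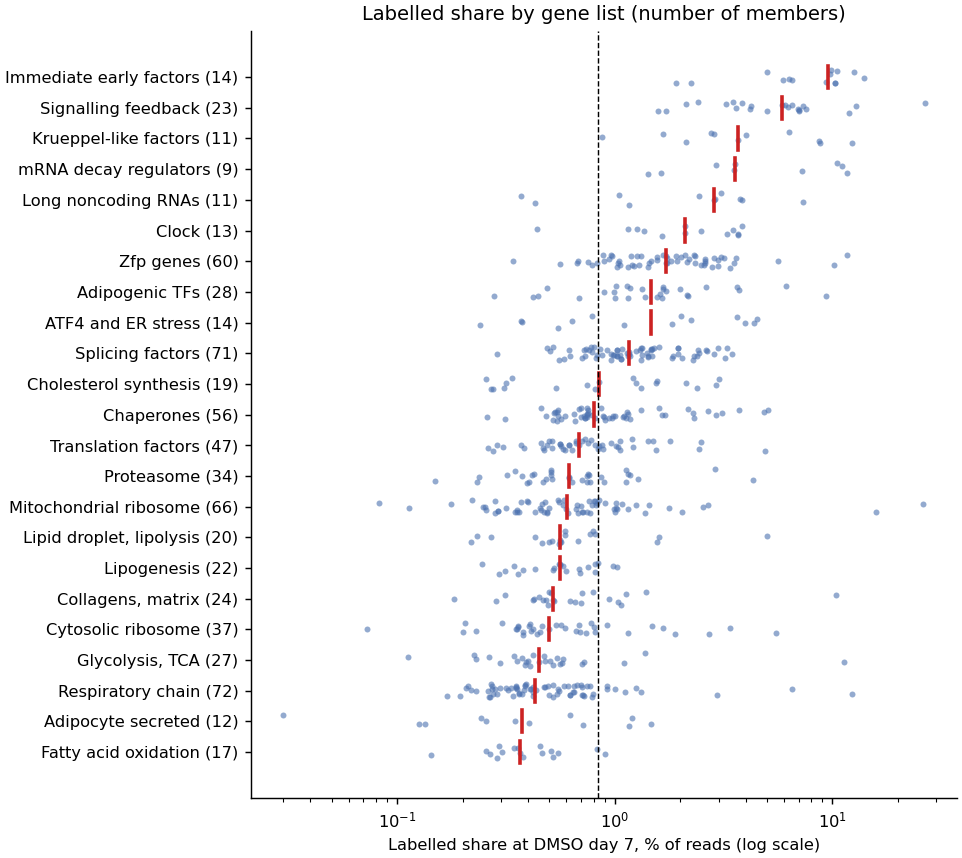
Labeled share at DMSO day 7 (percent of reads, mean of 3 libraries, log scale) of each member of 23 gene lists, with the number of members in parentheses, the list's median as a red bar and the median of all 6697 genes as a dashed line. Medians run from 0.368% for fatty acid oxidation to 9.53% for immediate early factors, and members with no labeled read are drawn at 0.03%.

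The very highest shares had another pattern over time. Nme1, a nucleoside diphosphate kinase, had shares of 25.4%, 15.5% and 25.8% at day 7. Its means were 22.2% ± 4.64 at day 3, 21.7% ± 3.78 at day -2 and 21.6% ± 3.68 at ML-792 day 7, although the pooled share of all genes was 3.16 times higher at day -2 than at day 7. The same steadiness was seen for Vcl, the focal adhesion protein vinculin, with 30.5% ± 2.57 at day 7 and 37.5% ± 0.648 at day -2, for 2510039O18Rik with 22.03% ± 3.57 and 21.4% ± 0.343, and for B230118H07Rik, the highest of all, with 41.4% ± 4.97 and 44.4% ± 5.82. Lists with low medians held such members too, namely Col3a1 (10.4% ± 2.37 and 10.5% ± 2.67), Ndufs6 (12.3% ± 1.98 and 13.3% ± 0.707), Suclg1 (11.3% ± 2.49 and 10.6% ± 3.26) and Mrps12 (15.9% ± 0.618 and 15.8% ± 3.79). Each was the highest of its list except Mrps12, which came after Mrps27.

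Of the 158 genes with a share of 5% or more, 85 had a ratio of day -2 to day 7 under 1.5 and 73 had a higher ratio, a division chosen after seeing the data. The 85 were not all steady, since they include genes whose share rose from day -2 to day 7, such as Orm3 and Mad2l2. The 85 had median shares of 9.21% on day 7, 8.41% on day 3, 8.10% on day 1, 9.39% in preadipocytes and 8.88% with ML-792. The 73 had 6.59%, 5.27%, 5.85%, 17.5% and 4.21% in the same order. The regulator lists named above (immediate early, Krueppel-like, feedback, decay, clock and adipogenic factors) had 32 genes among the 73 and 2 among the 85. A position where the cells' genome has C and mm10 has T would also count as labeled at every time, unless masked as a variant, and its part in the 85 was not tested. Of the 15 genes with the highest shares among those at or below 30% in every library and with 10 labeled reads in each, most were of the steady kind, and Nme1, 2510039O18Rik, Bysl, Nfkbib, Chd3, Hip1r, Ccdc124, Mrps12, Rbbp9, Sugp1, Qdpr and Mvb12a had ratios under 1.5. Of the same 15, Orm3 and 5730408K05Rik had higher shares at day 7 than at day -2.

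Shares above 30% in a DMSO day 7 library were seen in 6 genes, B230118H07Rik, Nup88, Map3k11, Vcl, Nfkbiz and Mrps27, of which Nfkbiz alone had a ratio of 1.5 or more (1.55). In single libraries the steady entries could drop. Qdpr had 13.6%, 16.0% and 13.5% at DMSO day 7 but 16.0%, 12.8% and 0.344% at ML-792 day 7, and Nup88 had 38.6%, 38.1% and 47.2% at day 7 but 39.8%, 36.0% and 2.91% at day -2.

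**Figure D4:**
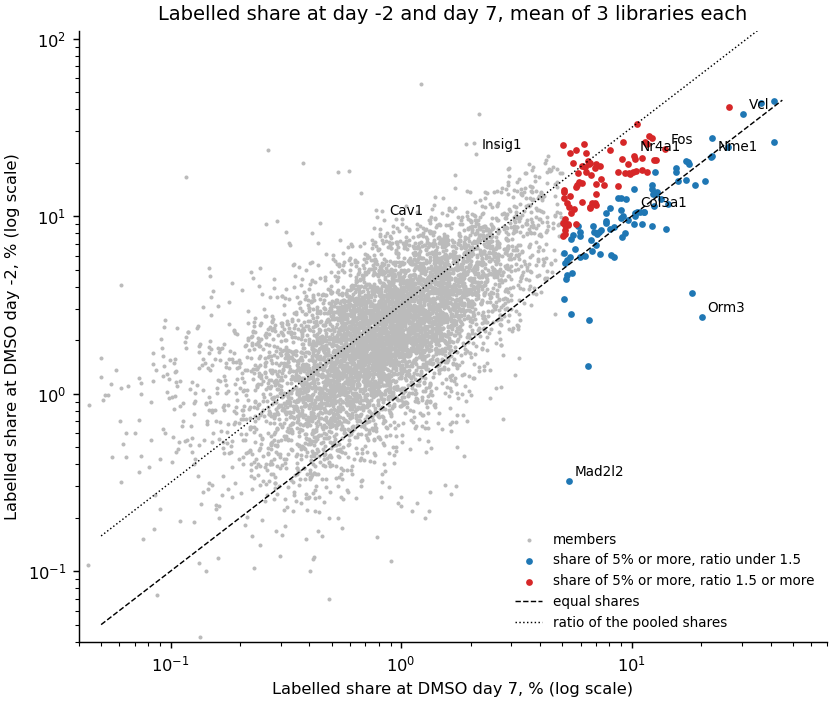
Labeled share at DMSO day -2 against DMSO day 7 (percent, means of 3 libraries, both log scales) for genes above 0 at both times. The dashed line marks equal shares and the dotted line the 3.16-fold ratio of the pooled shares; of the 158 genes at 5% or more, the 85 in blue lie near or below the dashed line and the 73 in red above it.

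Libraries that had no part in ranking the genes by share were examined next, although their reads counted in the choice of each symbol's interval. Shares at DMSO day 3 and at ML-792 day 7 were each tested against the typical gene by edgeR's quasi-likelihood test on labeled and unlabeled counts, with Benjamini-Hochberg adjustment over the 6444 genes tested. Of the 6697 members, 5223 passed the filter on labeled reads, many of them through the day -2 libraries. The typical gene is the 0 point set by TMM scaling, a trimmed mean over genes. The median tested member lay below it, with a log2 ratio of -0.365 at day 3 and -0.403 at ML-792 day 7. Counts of higher and lower calls thus depend on where this 0 point lies. At day 3, 493 members were called higher and 1049 lower at an adjusted p under 0.05, against a background of 11.2% higher and 16.4% lower over all genes tested. Of the 656 tested genes in the highest decile at day 7, 353 were called higher and 0 lower, and of the 285 tested in the lowest decile, 0 were called higher and 145 lower. At ML-792 day 7, 429 members were higher and 985 lower (background 9.71% and 15.4%), with 319 higher and 0 lower of the highest decile and 0 higher and 141 lower of the lowest. By column sums without TMM the split of the ML-792 calls was 545 and 727, and by DESeq2 561 and 751. With only the compared group in the fit it was 417 and 446 at day 3 and 317 and 359 at ML-792 day 7, from 1301 and 964 tested members. The libraries tested are not those that ranked the genes, but the fit shared its estimate of the spread over all libraries, and the same intervals, T content and reference were read in each.

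By list, all 14 immediate early factors were higher than the typical gene at day 3 and 11 of 14 at ML-792 day 7, and 19 of 23 feedback genes were higher at each. Fos was higher by a log2 ratio of 2.86 at day 3 and 2.84 with ML-792. Respiratory chain genes were lower in 44 of 57 tested at day 3 and in 45 of 57 with ML-792, with 3 higher in each, and fatty acid oxidation genes were lower in 11 of 14 in each. Cfd lay below the typical gene by 3.69 on the log2 scale at day 3 and by 3.01 with ML-792. Adipogenic transcription factors were mixed, with 5 higher and 2 lower of 25 at day 3. The 85 genes with a day -2 to day 7 ratio under 1.5 were higher in 75 and 77 of 85. The 73 others were higher in 63 and 64 of 73, so that both classes were called higher at similar rates.

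**Figure D5:**
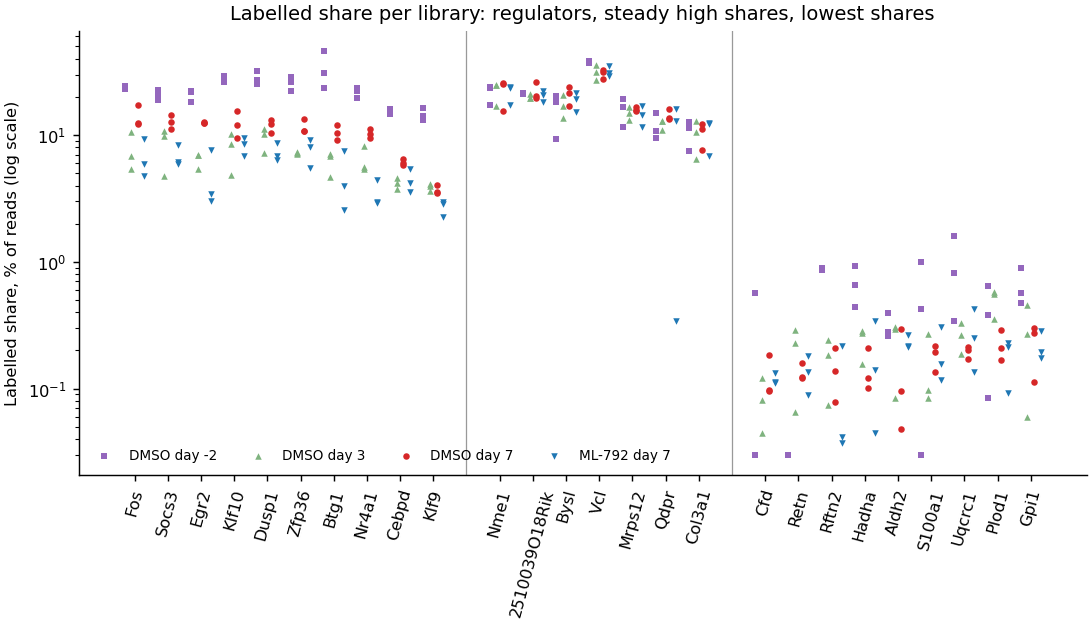
Labeled share (percent, log scale) in each library at DMSO day -2, DMSO day 3, DMSO day 7 and ML-792 day 7 for 10 regulators (left), 7 genes with steady high shares (middle) and 9 of the lowest shares among abundant genes (right), 1 symbol per library and values of 0 drawn at 0.03%. Regulators were highest at day -2, for example Fos at 23.9% against 13.97% at day 7, whereas Nme1 stayed at 21.6% to 22.2%. The pooled share of all genes was itself 3.16 times higher at day -2 than at day 7, a larger ratio than that of Fos.

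Which shares changed relative to the typical gene over differentiation was tested as a difference of differences in the same fit. Between day 7 and day 3, 5 members were higher at day 7 and 3 lower, against a background of 0.0776% and 0.0466% of 6444 genes, with 436 at an unadjusted p under 0.05. Sox9, a cartilage and progenitor transcription factor, had shares of 8.26%, 8.23% and 7.61% at day 7 and 3.18%, 3.09% and 2.33% at day 3, a log2 ratio of 1.44 ± 0.23 (SE, adjusted p = 7.27e-05). Snai1, a repressor of epithelial genes, had 9.06%, 11.8% and 8.07% against 5.10%, 1.58% and 3.53% (1.45 ± 0.32, adjusted p = 0.0209). The protease gene Adamts1 (6.95% ± 1.76 against 2.79% ± 0.357) and Egr1 (9.35% ± 1.44 against 5.09% ± 0.817) were also higher, with adjusted p = 1.45e-05 and 0.039. For these 4 genes the groups did not overlap. Without library C the call of Sox9 was lost (log2 ratio 1.35), and that of Snai1 was lost without library B (0.91) or C (1.64). That of Adamts1 was lost without library C (1.05), and that of Egr1 without library A (0.69) or C (0.64).

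The fifth gene higher at day 7 was Orm3, an orosomucoid, at 20.9%, 15.9% and 23.7% against 3.15%, 3.31% and 4.54% (log2 ratio 2.57 ± 0.31, adjusted p = 7.64e-08). Orosomucoid genes are near-identical copies in the mouse, so its reads and their mismatches can be split among copies, and the value is uncertain.

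The 3 genes with lower shares at day 7 than at day 3 were ones whose total reads rose meanwhile. Cpm, a membrane carboxypeptidase, had 0.962%, 0.664% and 0.495% at day 7 and 2.69%, 2.09% and 3.98% at day 3 (log2 ratio -2.22 ± 0.42, adjusted p = 0.00266), and its mean total went from 1034 to 5430 reads. Cbr2, a carbonyl reductase, had 0.624% ± 0.138 against 1.60% ± 0.201 (-1.53 ± 0.29, adjusted p = 0.00266) with mean totals from 6061 to 13717. Scd1, the stearoyl-CoA desaturase, had 0.562% ± 0.0441 against 0.980% ± 0.125 (-0.95 ± 0.20, adjusted p = 0.0178) with mean totals from 18589 to 98038. In none of the 3 did the libraries of the groups overlap. The calls of Cbr2 and Scd1 were lost without library A or C (log2 ratios of -1.54 and -1.58, and of -0.89 and -0.95), and that of Cpm without library C (-1.72). With one library size for both kinds of count, those of Cbr2 (-1.39) and Scd1 (-0.80) were lost, and the split of calls was 5 higher and 1 lower, while by column sums it was 10 higher and 2 lower.

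Between day 7 and preadipocytes at day -2, 122 members were higher and 94 lower, against a background of 2.13% and 1.47%. This comparison rested on the scaling, since the pooled share itself fell. By column sums without TMM the split was 316 higher and 45 lower, with only the 2 groups in the fit 311 and 64, and with one library size for both kinds of count, which leaves in the fall of the pooled share, 4 and 2623. The last scaling moved the median log2 ratio of the tested members from -0.06 to -1.41, and column sums moved it to 0.28. Of the members called, 69 of the 94 lower and 100 of the 122 higher had at least 10 labeled reads in each day 7 library. Without library A 81 members were called and without library C 107, of 216 in all. The following values are relative to the typical gene.

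Genes of cholesterol synthesis and uptake, which SREBP2 drives when sterols are low, were lower at day 7 in 5 of 17 tested and higher in 0. The filter on labeled reads could be passed through day -2 alone, and 4 of the 5 had at least 10 labeled reads in each day 7 library. Hmgcs1, the HMG-CoA synthase, had 0.863%, 0.788% and 0.779% at day 7 and 9.38%, 6.83% and 7.63% at day -2. Insig1, which holds SREBP in the endoplasmic reticulum, had 1.84%, 2.29% and 2.23% against 21.3%, 20.6% and 25.1%. The groups were far apart for both genes. Msmo1, a sterol oxidase, was also called (0.749% ± 0.193 against 7.33% ± 1.94). Insig1 was called lower with a log2 ratio of -2.38 ± 0.52 (adjusted p = 0.00171), a call lost without library A (-2.43) or C (-2.27).

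The caveolar genes Cav1 (0.844% ± 0.0843 against 9.45% ± 2.33) and Cav2 (0.591% ± 0.0620 against 6.67% ± 2.14) were lower at day 7 as well. By size, the lowest log2 ratios without overlap included those of Fam188a (0.0607% ± 0.105 against 4.08% ± 1.66) and Rnft1 (0.325% ± 0.104 against 7.05% ± 1.22), which had as few as 0 and 1 labeled reads in a day 7 library, so that they passed the filter on labeled reads through other groups. The 3 highest belonged to Mad2l2 (5.33% ± 1.26 against 0.322% ± 0.558, log2 ratio 6.09 ± 1.10), Orm3 (20.2% ± 3.96 against 2.70% ± 4.68, with a mean of 42.3 total reads at day -2) and 5730408K05Rik, with a mean of 18.3% ± 13.1 and 1 library far below the others. The call of 5730408K05Rik was lost without library A (log2 ratio 2.84) or B (3.67), that of Fam188a without A (-4.53) or B (-11.2), and that of Rnft1 without any one of the 3 libraries (-2.70 to -3.58).

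Among genes higher at day 7, 14 of 28 tested cytosolic ribosomal proteins and 5 of 23 collagens and matrix proteins were called, with 0 lower in either list. Rpl32 had 0.469%, 0.196% and 0.398% at day 7 and 0.463%, 0.346% and 0.558% at day -2, so that its share hardly differed while that of the typical gene was higher at day -2. The median ratio of day -2 to day 7 was 1.26 for ribosomal proteins and 2.51 for all members. Reads with a sequencing error at a T would form a share that does not follow the labeling, and its part in these low shares was not tested.

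The effect of ML-792 on the shares was tested in the same way. Against DMSO at day 7, 1 member was higher and 2 lower, with a background of 0.0155% and 0.0466% of 6444 genes and 342 members at an unadjusted p under 0.05. Nr4a1 had 11.2%, 10.2% and 9.43% in DMSO and 2.95%, 4.44% and 2.91% with ML-792 (log2 ratio -1.37 ± 0.25, adjusted p = 0.00232), and Egr1 had 9.23%, 7.98% and 10.8% against 3.53%, 2.49% and 3.72% (-1.30 ± 0.19, adjusted p = 3.66e-05). Both were lower in each library with ML-792. Their mean totals were 755 and 1673 reads for Nr4a1 and 2477 and 2658 for Egr1. The metallothionein Mt2 was higher with 1.90%, 1.70% and 1.87% against 1.33%, 1.12% and 1.39% (0.86 ± 0.15, adjusted p = 0.00172), while its mean total went from 95818 to 15526 reads. The comparisons of day 7 with day 3 and of ML-792 with DMSO share the DMSO day 7 libraries, and Egr1 was called in both. With one library size for both kinds of count, 0 members were higher and 6 lower. Without library A the calls of Nr4a1 (log2 ratio -1.23) and Mt2 (0.82) were lost, and likewise without library C (-1.36 and 0.87).

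Total reads changed over differentiation in all deciles of share. Between day -2 and day 7 the median log2 change of TMM-scaled total reads ran from 0.55 in the lowest decile to -0.21 in the highest, and an absolute change over 1 on the log2 scale was seen in 40.6% of genes in the lowest decile, 23.9% in the eighth and 34.2% in the highest. Across the 6697 genes the Spearman correlation of the share was -0.21 with mean total reads, 0.28 with interval length and 0.26 with T content. Across 5982 genes with 200 reads in both groups it was 0.67 between day 7 and day 3, and 0.76 for the 2198 of these with 1000 reads in each day 7 library. The points share intervals and T content, and genes are not independent replicates.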

How the data were processed

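The authors labeled RNA with 4-thiouridine, made QuantSeq 3′ libraries, called bases with bcl2fastq 2.17.1.14 and ran SlamDunk against mm10 and RefSeq 3′ UTR intervals, with reads of at least 1 T-to-C change as labeled. They deposited whole-number counts of total and of labeled reads per interval and library. Of the library columns, 24 were matched to samples and 6 matched no sample in the labels and were not used. Interval coordinates and T counts matched the GRCm38 sequence on the stated strand for all 6697 members. SlamDunk also masks positions called as variants, and those positions were not analysed here.

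The labeled share was the labeled over total counts, with no correction for background. Labeled and unlabeled counts of all 24 libraries (48 columns) were fitted together in edgeR 4.0.16 (R 4.3.3, limma 3.58.1) with joint TMM scaling, 1 term per library and 1 labeled term per group, and tested by quasi-likelihood F-tests with Benjamini-Hochberg adjustment over 6444 genes that passed filterByExpr on labeled counts (minimum count 10, minimum total 15). A library term removes total reads, so a contrast is of the ratio of labeled to unlabeled reads. This is close to a contrast of shares where shares are low and departs from it where they are high. The deposited counts of labeled reads per DMSO day 7 library were 180072 to 186237 over all intervals. p-values measure the spread between libraries within groups, estimated over all 24 libraries of 1 cell line. The counting limit of 3 reads for a count of 0 covers counting error only, as the deposited counts are of reads and not molecules. Exact binomial 95% intervals were drawn for the percent of windows with a motif, and they treat genes as independent. The fit was tested on simulated data. DESeq2 1.42.0 served as an alternative, with other filters, scalings, entries and left-out replicates.

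Named genes were the 15 highest shares at or below 30% in all 24 libraries with 10 labeled reads in each day 7 library, the 10 lowest with 5000 total reads in each, the 3 highest and lowest ratios without overlap per contrast, each list's highest, lowest and most abundant members, up to 5 over 30% and 4 at the 200-read threshold. Genes outside it were named as members of lists or after their values were seen. The members, gene lists and tests were chosen with earlier results of these data known. Some genes that the rule names are not reported here.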

Additional observations from a re-analysis of the deposited data

How the results depend on the processing

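The median share of 0.838% moved to 0.691% with at least 1000 reads and to 0.761% after subtracting the share at the 1st percentile, and lay between 0.799% and 0.86% when 1 library was left out. The number of gene lists with a median above that of all genes was 19, and 17 to 20 over the alternatives. Against the typical gene, 1542 members were called at day 3 and 1414 at ML-792 day 7. With only the compared group in the fit these were 863 and 676, and without 1 replicate 1060 to 1196 and 930 to 1162. Between day 7 and day 3, 8 calls became 21 by DESeq2 and 2 to 9 without 1 replicate. Between day 7 and day -2, 216 became 361 by column sums, 375 with only the compared groups and 2627 with one library size for both kinds of count, and 81 to 182 without 1 replicate. Between ML-792 and DMSO, 3 became 6 with one library size and 1 to 3 without 1 replicate. The cause was not tested. Among the genes named for the highest and lowest ratios of a contrast, no log2 ratio changed sign under any alternative. This does not cover the other genes named, whose direction between day 7 and day -2 can depend on the scaling. Rpl32 had a log2 ratio of 0.93 relative to the typical gene, but its unscaled share was 0.354% at day 7 against 0.456% at day -2. The medians of chaperones, cholesterol, redox and preadipocyte genes lay within 0.18 of that of all genes on the log2 scale and changed side in some repeats.

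The replicate letters did not meet the requirement set for pairing, a correlation over 0.1 in every pair, although library B had the lowest pooled share in each of the 5 groups described. Deviations of same-letter libraries correlated by 0.0177 on average (84 pairs, 4399 genes) against -0.00883 for different letters (168 pairs). With the letter as a replicate block, 1338, 1270, 8, 232 and 4 members were called in the 5 tests, in the order above. Depth limits most single genes, since the median gene had 7 labeled reads per library.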

Other observations

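Library B had the lowest pooled share of the 3 in each of the 5 groups described, and some steady high shares followed the same letter. Of the 85 genes at 5% or more with a day -2 to day 7 ratio under 1.5, 63 had 200 reads in each of the 15 libraries of the 5 groups described, and in 12 of these 63 library B had the lowest share of the 3 in every group, while library A was lowest in 0 and library C in 0. Col3a1 had 12.2%, 7.68% and 11.2% in A, B and C at DMSO day 7, 12.8%, 6.43% and 10.5% at day 3, 12.6%, 7.47% and 11.3% at day -2 and 12.3%, 6.80% and 12.2% at ML-792 day 7. Nme1 had 25.4%, 15.5% and 25.8% at DMSO day 7 and 24.04%, 17.4% and 23.3% at ML-792 day 7. In 2 of the 63, library B was the highest in every group. Among 56 genes at 5% or more with a higher ratio and enough reads, library B was the lowest in every group in 2 and the highest in 2. These counts were made after seeing the data and have no test.

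ATF4 and endoplasmic reticulum stress genes had a median share of 1.47% over 14 genes, from 0.241% for the serine hydroxymethyltransferase Shmt2 to 4.48% for Ppp1r15a, which restarts translation after stress. p53 targets had a median of 1.83% over 10 genes, and Mdm2, the ligase that degrades p53, had 2.10%, 1.85% and 1.99% from 33387 to 66539 reads. Among insulin signaling genes Irs1 had 3.03%, 4.62% and 2.09%, and its paralog Irs2 had 0.717%, 0.463% and 0%, so that the libraries of the 2 genes did not overlap.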
